A study of Mus musculus with 15 samples.

Results

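The immediate early response genes are a set of 38 mouse genes that cells transcribe within minutes of a stimulus, before any new protein has to be made. Members were found by symbol in a table of 36653 gene identifiers, and 38 of the 38 listed symbols matched 1 identifier each. Messenger RNA was enriched from ventricle and sequenced, for 15 wild-type C57BL/6 mice aged 10 weeks in 3 groups of 5. The vehicle mice received saline. The AngII mice carried an implanted pump that released angiotensin II under the skin at 1000 ng/kg/min. Angiotensin II is the pressor peptide of the renin system, and it drives growth and scarring of the heart. The AngII plus OA mice carried the same pump and also received a daily dose of 160 mg/kg of oleic acid (OA), the main fatty acid of olive oil, in a volume of 0.3 mL. The labels do not say whether the saline was given by pump, and no group given oleic acid alone is used here. The days of infusion, the interval between the last oleic acid dose and collection, and the way the hearts were collected are not stated in the labels.

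Immediate early genes are switched on by kinase cascades acting on transcription factors that are already present. Calcium and cyclic AMP signals act through CREB at cyclic AMP response elements (CREs), and ERK signals act through serum response factor (SRF) and its partners at CArG boxes. Most of the products are transcription factors, such as FOS and JUN, which pair to form AP-1, and others are feedback inhibitors, such as the dual-specificity phosphatases that switch MAP kinases off. The transcripts are short-lived, so their level reflects the period just before the tissue was taken. In heart muscle, angiotensin II acting on its type 1 receptor is a classic inducer of Fos, Jun, Egr1 and Myc.

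Values are FPKM, fragments scaled to the length of the gene and to the size of the library, so levels can be set side by side between genes. The libraries' FPKM denominators ran from 24.5 to 28.3 M fragments. Of the 38 members, 35 had a mean of at least 1 FPKM over the 15 libraries, 27 of at least 5 FPKM and 14 of at least 20 FPKM. Rhob, a small GTPase of the endosome, had the highest mean at 96.1 FPKM, followed by Klf2 at 62.0 FPKM and Dusp1 at 40.6 FPKM. Dusp4 and Dusp2, phosphatases of the cell nucleus, had the lowest means at 0.382 and 0.411 FPKM. These 2 genes were below the minimum mean of 0.5 FPKM for testing, which left 36 members in the tests. Because bulk ventricle was sequenced, fewer cells of a type and less RNA per cell cannot be told apart in any result below.

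The promoters of several members hold TGACG, the core of a CRE that CREB, ATF and AP-1 family proteins bind. Promoter sequences from RefSeq, build GRCm38.p6, were available for 29 of the 38 members. This is another build than the mm8 named in the submitters' processing notes, so the coordinates below belong to the RefSeq table. Within the 250 bases before an annotated start, TGACG was found on either strand for 17 of the 29 members (58.6%) and for 5347 of 27025 genes (19.8%), a gene counting once if any of its starts had it. The 17 were Atf3, Btg2, Cebpb, Csrnp1, Dusp1, Dusp5, Egr2, Fos, Fosb, Junb, Klf2, Klf4, Maff, Mafk, Nr4a1, Nr4a2 and Nr4a3. The full palindrome TGACGTCA, which holds that core on both strands, was found for 3 members (Btg2, Dusp1 and Maff; 10.3% against 1.77% of all genes). A CArG box on either strand was found for 3 members (Dusp5, Egr2 and Zfp36; 10.3% against 1.62%). An AP-1 site, TGACTCA or TGAGTCA, each the reverse complement of the other, was found for 1 member, Csrnp1 (3.45% against 5.16%). A TATA box, TATAAA on the gene's own strand, was found for Fos, Gadd45b and Gadd45g (3 members, 10.3% against 8.94%). A member not named for a motif had no match in this window or had no promoter sequence here. Sites more than 250 bases before the start were not searched. These matches describe the letters in the window and do not show that a protein was bound in these hearts.

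The 150 bases before the start (positions -150 to -1) are shown for 6 of the 17 members with TGACG, which do not stand for all 29. Gadd45b, which had the smallest limma adjusted p of the members, held no TGACG in its window. The stretches are written 5′ to 3′ on the gene's strand with each TGACG or its reverse complement CGTCA in capitals. They lie, in the order shown, at chr12:85473740-85473889, plus strand, chr7:19310046-19310195, minus strand, chr8:84978749-84978898, minus strand, chr15:101266696-101266845, plus strand, chr1:191183334-191183483, minus strand, and chr17:26508473-26508622, minus strand.
Fos: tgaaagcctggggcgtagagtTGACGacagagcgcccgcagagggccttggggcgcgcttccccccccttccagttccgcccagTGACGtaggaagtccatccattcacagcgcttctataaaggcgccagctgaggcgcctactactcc
Fosb: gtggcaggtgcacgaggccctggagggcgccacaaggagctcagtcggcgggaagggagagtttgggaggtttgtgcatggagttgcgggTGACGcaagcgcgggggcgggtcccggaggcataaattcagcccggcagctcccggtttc
Junb: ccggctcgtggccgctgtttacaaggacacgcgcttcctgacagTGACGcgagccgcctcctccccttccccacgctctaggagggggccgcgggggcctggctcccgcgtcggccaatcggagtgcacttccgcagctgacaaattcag
Nr4a1: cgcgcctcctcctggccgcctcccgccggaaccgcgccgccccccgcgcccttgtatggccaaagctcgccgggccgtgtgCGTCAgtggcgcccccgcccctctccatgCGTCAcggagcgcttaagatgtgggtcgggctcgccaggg
Atf3: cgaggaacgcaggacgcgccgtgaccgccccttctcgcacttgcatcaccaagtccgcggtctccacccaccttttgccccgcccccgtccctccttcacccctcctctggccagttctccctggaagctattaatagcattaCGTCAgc
Dusp1: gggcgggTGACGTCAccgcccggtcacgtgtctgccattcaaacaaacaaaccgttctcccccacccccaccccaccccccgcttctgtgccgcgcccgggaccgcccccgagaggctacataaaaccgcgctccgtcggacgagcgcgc
The Fos and Nr4a1 stretches each held 2 such cores. Fosb, Junb and Atf3 held 1 each, and in Atf3 it lay next to the start. The 2 cores of Dusp1 overlapped to form the full CRE.

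Across the groups, no member passed the test. With limma on log2(FPKM + 1) and Benjamini-Hochberg adjustment over 13121 genes, 0 of 36 members had an adjusted p under 0.05 in AngII against vehicle, where 1.5% of all genes tested were called (197 genes, 166 of them higher). For AngII plus OA against AngII and for AngII plus OA against vehicle the count was also 0 of 36, where 0.0% of all genes were called in each. At an unadjusted p under 0.05 the members numbered 6 in AngII against vehicle (16.6% of all genes), 1 in AngII plus OA against AngII (6.6% of all genes) and 5 in AngII plus OA against vehicle (3.36% of all genes). An exact permutation test, adjusted in the same way, called 0 members and 0 of all genes in each comparison. Its smallest possible p of 0.00794 passes the adjustment over 13121 genes only if very many genes reach it, so this count decides nothing. The 3 comparisons share groups, so their results are not independent of each other.

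The 6 members with an unadjusted limma p under 0.05 in AngII against vehicle were Egr1, Fos, Jun and Dusp1, with lower means in AngII, and Klf10 and Gadd45b, with higher means. The 1 member in AngII plus OA against AngII was Klf10, with a lower mean. Lower means in AngII plus OA than in vehicle were found for Dusp1, Junb, Nr4a1, Klf2 and Fosb. None of the 36 members had groups that did not overlap in any comparison. Among all genes tested, groups did not overlap for 3.8% in AngII against vehicle, 1.27% in AngII plus OA against AngII and 0.838% in AngII plus OA against vehicle. The median log2 difference of the 36 members was -0.14, -0.15 and -0.18 in these 3 comparisons, in the same order, and that of all genes tested was 0.07, -0.05 and 0.02. The mean log2(FPKM + 1) was lower for 21, 27 and 22 of the 36 members (58.3%, 75.0% and 61.1%). Of all genes tested, 34.3%, 63.4% and 41.7% were lower.

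The counts at an unadjusted p under 0.05 depended on single hearts and on the fit. In AngII against vehicle they ran from 3 (with library weights or without vehicle replicate 4) to 10 (without AngII replicate 4 or without vehicle replicate 3), while the share of all genes ran from 10.9% to 20.2% over the same settings. In AngII plus OA against AngII they ran from 0, under several settings, to 4 (without AngII replicate 3), with 3.66% to 10.9% of all genes. In AngII plus OA against vehicle they ran from 1 (without vehicle replicate 5) to 11 (with only the 10 libraries compared in the fit), with 2.23% to 5.78% of all genes. The medians also moved with single hearts. Without AngII replicate 4 the members' median was -0.35 in AngII against vehicle and 0.02 in AngII plus OA against AngII. Without AngII replicate 5 the median in AngII against vehicle was -0.015, and with a minimum mean of 5 FPKM, which left 27 members, it was 0.0062.

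**Figure D1:**
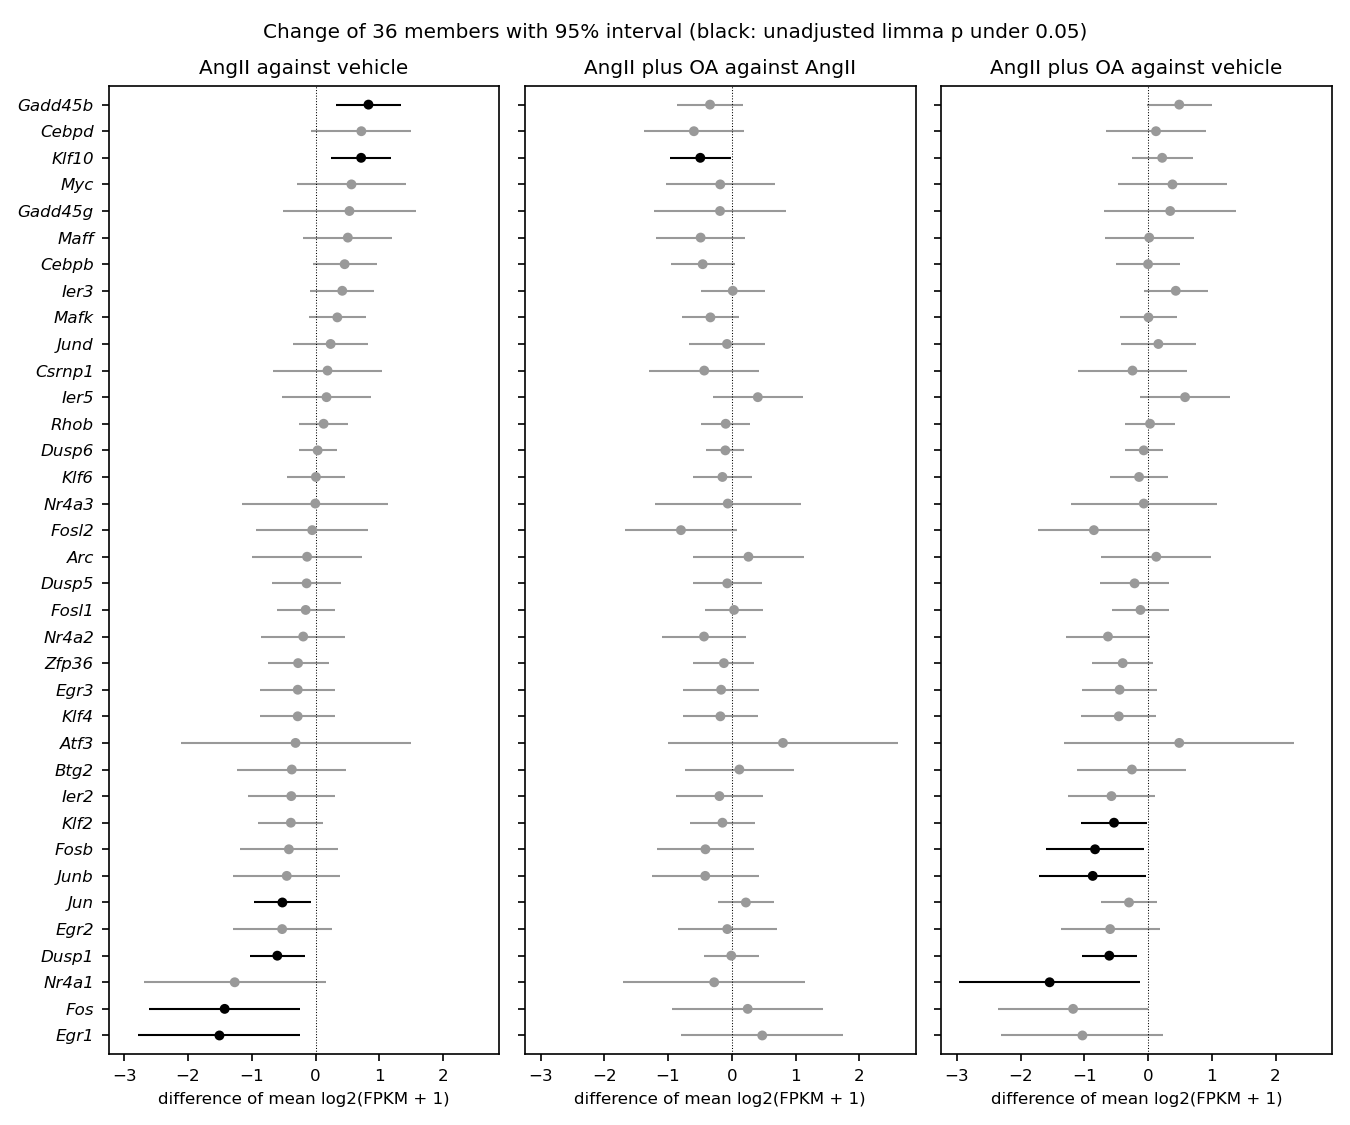
Difference of mean log2(FPKM + 1) with its 95% interval from limma for the 36 tested members in the 3 comparisons, ordered by the difference between AngII and vehicle; black marks an unadjusted p under 0.05 and grey the rest. Black intervals number 6, 1 and 5 from left to right, and no member had an adjusted p under 0.05.

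Of the 7 tested AP-1 genes, 6 had a lower mean log2(FPKM + 1) in AngII than in vehicle (34.3% of all genes tested), none past the test. One of the 6, Fosl2, differed by -0.05 and had a higher mean FPKM in AngII (8.78 against 7.49 FPKM). In AngII plus OA against vehicle 6 of the 7 had a lower mean on either scale (41.7% of all genes tested on the log2 scale), none past the test. Fos, the subunit best known as a marker of recent stimulation, stood at 5.72, 16.2, 9.99, 22.3 and 25.6 FPKM in vehicle replicates 1 to 5, at 7.66, 8.69, 1.47, 7.80 and 2.08 FPKM in the AngII replicates, and at 1.96, 16.3, 3.46, 2.92 and 13.9 FPKM in the AngII plus OA replicates. The AngII hearts lay in the lower part of the vehicle range or below it, while the AngII plus OA hearts split into 2 near the middle of the vehicle range and 3 below it. The log2 difference of Fos was -1.43 ± 0.56 (SE) in AngII against vehicle (limma adjusted p = 0.207; exact permutation p = 0.056) and -1.18 ± 0.56 in AngII plus OA against vehicle (limma adjusted p = 1.0). Between AngII plus OA and AngII it was 0.25, with a 95% interval from -0.93 to 1.43. Whole reads recovered from the FPKM for Fos ran from 98 to 1477 per library. The exact 95% Poisson interval, which covers counting error only, was 1.20 to 1.80 FPKM for AngII replicate 3 and 7.95 to 9.48 FPKM for AngII replicate 2.

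Jun, the main partner of FOS, was measured at 20.2, 25.6, 19.9, 28.6 and 26.5 FPKM in vehicle, 19.5, 14.6, 13.9, 23.9 and 12.3 FPKM in AngII and 16.8, 19.4, 15.1, 16.3 and 32.9 FPKM in AngII plus OA. In AngII, 4 hearts were below every vehicle heart and replicate 4 lay within the vehicle range, whereas AngII plus OA replicate 5 was above all others. Its log2 difference in AngII against vehicle was -0.52 ± 0.21 (limma adjusted p = 0.220). Fosb, a close relative of Fos, stood at 2.68, 1.17, 0.401, 1.78 and 1.90 FPKM in vehicle, 1.10, 0.508, 0.0907, 4.14 and 0.193 FPKM in AngII and 0.977, 0.161, 0.0958, 0.320 and 0.521 FPKM in AngII plus OA. Its highest and its lowest value of the series were both in AngII hearts. The log2 difference of Fosb in AngII plus OA against vehicle was -0.83 ± 0.36 (limma adjusted p = 1.0; exact permutation p = 0.024).

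Fosl2, a Fos-related subunit, stood at 5.57, 4.66, 11.4, 7.42 and 8.41 FPKM in vehicle, 4.82, 14.4, 2.83, 18.2 and 3.64 FPKM in AngII and 2.22, 2.53, 2.56, 5.30 and 6.54 FPKM in AngII plus OA. Of the AngII hearts, 2 were above the vehicle range, 2 below it and 1 within it, and 3 of 5 AngII plus OA hearts were below every AngII and vehicle heart. Its log2 difference in AngII plus OA against AngII was -0.80 ± 0.41 (limma adjusted p = 0.737). Junb, an AP-1 subunit that often restrains Jun, ranged from 13.9 to 39.2 FPKM in vehicle, 7.66 to 34.6 FPKM in AngII and 9.03 to 26.7 FPKM in AngII plus OA. Jund, another Jun relative, ranged from 5.60 to 17.4 FPKM over the 15 hearts and had a log2 difference of 0.24 in AngII against vehicle. Fosl1 ranged from 0.839 to 3.62 FPKM.

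**Figure D2:**
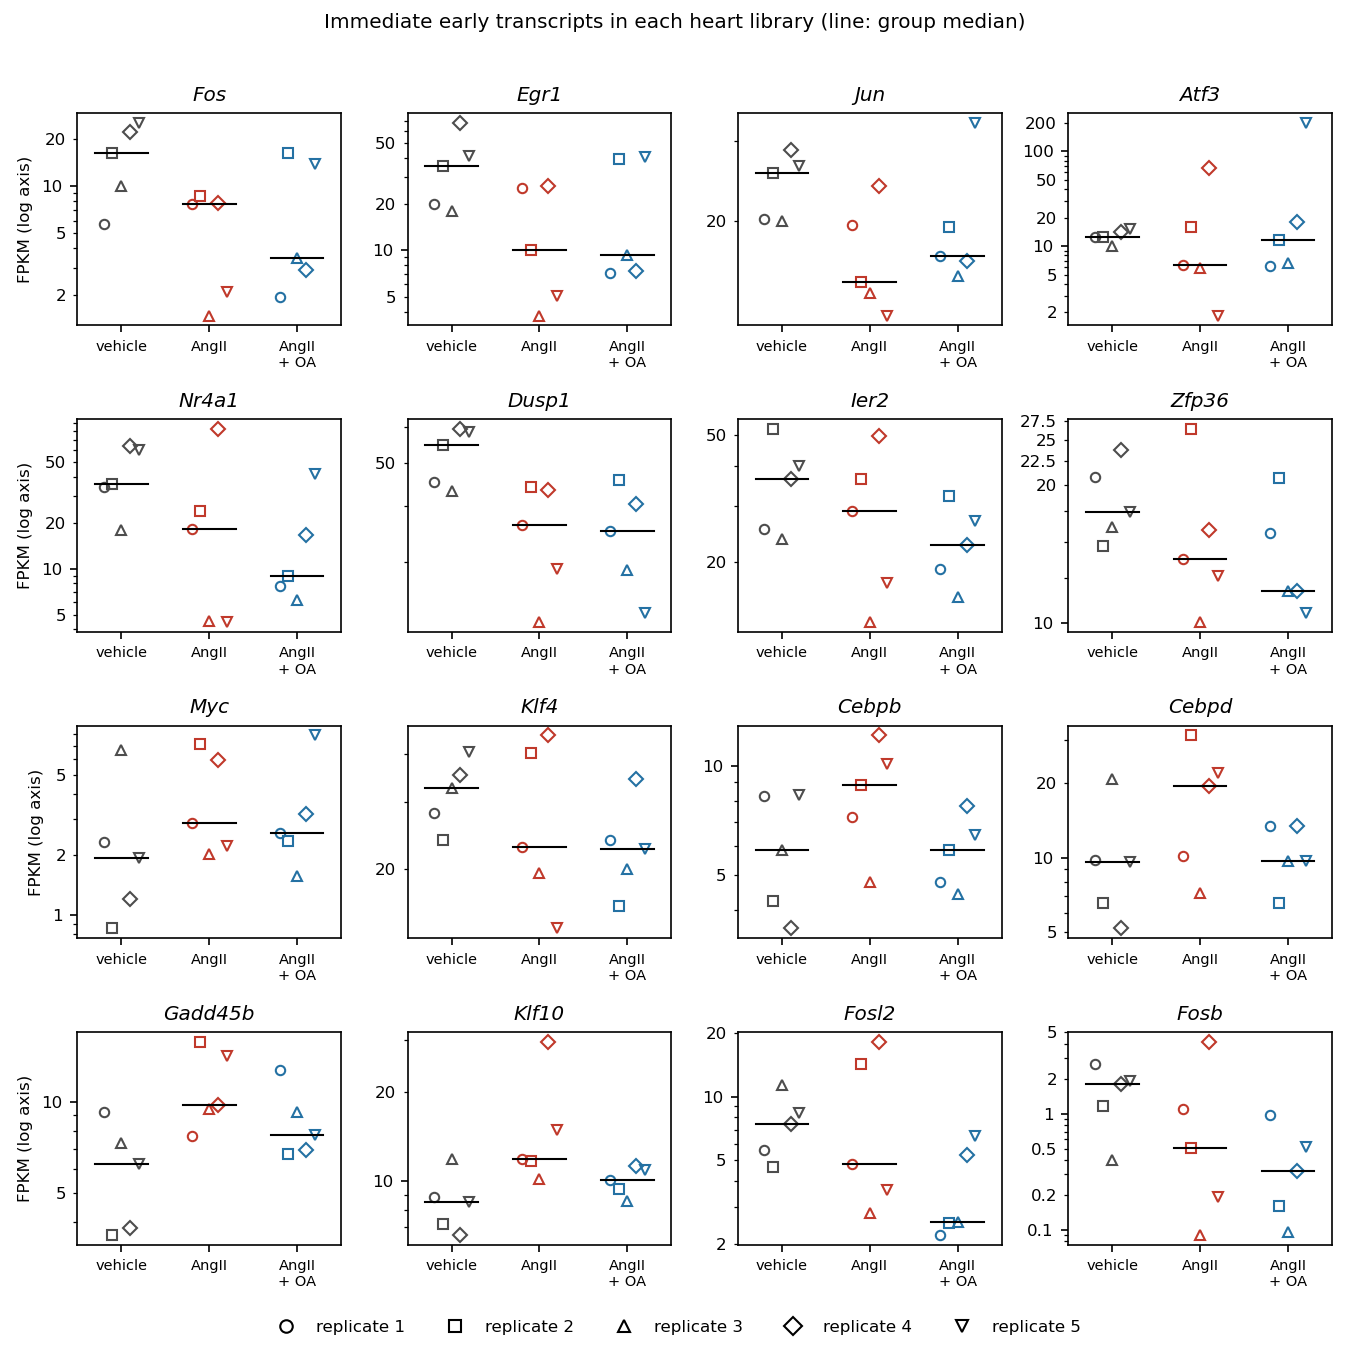
FPKM of 16 members in each of the 15 hearts on log axes that differ between panels, with a symbol for each replicate number and a line at the group median. In AngII, replicate 4 (diamond) is high and replicates 3 and 5 (triangles) are low in most panels, and for Atf3 the AngII plus OA replicate 5 heart reaches 201 FPKM.

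All 3 EGR genes, zinc finger factors that bind GC-rich promoters, had lower means in both AngII groups than in vehicle. Of all genes tested, 34.3% were lower in AngII than in vehicle and 41.7% in AngII plus OA than in vehicle. Egr1 stood at 20.02, 35.2, 18.1, 67.8 and 41.3 FPKM in vehicle, 25.5, 10.0, 3.75, 26.1 and 5.03 FPKM in AngII and 7.15, 39.2, 9.38, 7.39 and 40.7 FPKM in AngII plus OA. In each AngII-treated group 3 hearts were below every vehicle heart and 2 were inside the vehicle range. The 2 AngII plus OA hearts inside that range, replicates 2 and 5, were also the 2 with the highest Fos. The log2 difference of Egr1 was -1.51 ± 0.60 in AngII against vehicle (limma adjusted p = 0.215; exact permutation p = 0.056) and -1.03 ± 0.60 in AngII plus OA against vehicle (limma adjusted p = 1.0). Egr2 ranged from 0.510 to 6.30 FPKM and Egr3 from a listed 0 to 2.80 FPKM, each highest in vehicle replicate 4.

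The NR4A genes encode orphan nuclear receptors that act without a known circulating hormone. Nr4a1 stood at 34.3, 36.04, 17.8, 63.9 and 60.0 FPKM in vehicle, 18.2, 23.9, 4.56, 82.1 and 4.46 FPKM in AngII and 7.74, 8.87, 6.18, 16.6 and 41.3 FPKM in AngII plus OA. Of the AngII plus OA hearts, 4 of 5 were below every vehicle heart, while the AngII group held both the highest and the lowest value of the series. The log2 difference of Nr4a1 in AngII plus OA against vehicle, -1.54 ± 0.67 (limma adjusted p = 1.0; exact permutation p = 0.048), was the lowest of all 13121 genes tested in that comparison. In AngII against vehicle it was -1.27 ± 0.67 (limma adjusted p = 0.361). Nr4a2 ranged from 0.479 to 5.43 FPKM and Nr4a3 from 0.843 to 14.1 FPKM. For all 3 NR4A genes the highest of the 15 values was in AngII replicate 4.

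Among the ATF, CEBP and small MAF factors, 4 of 5 had a higher mean log2(FPKM + 1) in AngII than in vehicle. In AngII plus OA, 4 of 5 had a lower one than in AngII. These directions were common, since 8625 of all 13121 genes tested were higher in the first comparison and 63.4% lower in the second. The exception among the 5 in both comparisons was Atf3, whose mean FPKM was nevertheless higher in AngII than in vehicle (19.5 against 12.9 FPKM). Atf3, a stress-induced repressor of the CREB family, stood at 12.6, 12.6, 10.1, 14.1 and 15.1 FPKM in vehicle, 6.36, 16.1, 5.86, 67.3 and 1.85 FPKM in AngII and 6.17, 11.7, 6.73, 18.0 and 201 FPKM in AngII plus OA. The vehicle hearts lay close together, and both treated groups spread to either side of them. The value of AngII plus OA replicate 5 rested on 11317 reads, with an exact 95% Poisson interval from 197 to 205 FPKM. The log2 difference of Atf3 was -0.31 in AngII against vehicle (95% interval -2.12 to 1.49) and 0.80 in AngII plus OA against AngII (-1.0 to 2.61), and the latter was -0.043 without AngII plus OA replicate 5.

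Cebpb and Cebpd, basic leucine zipper factors of the acute-phase response, had their highest values in the AngII group. Cebpb stood at 8.23, 4.22, 5.85, 3.55 and 8.33 FPKM in vehicle, 7.24, 8.83, 4.77, 12.1 and 10.1 FPKM in AngII and 4.79, 5.86, 4.42, 7.77 and 6.44 FPKM in AngII plus OA. Its log2 difference was 0.46 ± 0.24 in AngII against vehicle (limma adjusted p = 0.349) and -0.46 ± 0.24 in AngII plus OA against AngII (limma adjusted p = 0.737). Cebpd stood at 9.82, 6.59, 20.8, 5.18 and 9.66 FPKM in vehicle, 10.2, 31.3, 7.24, 19.6 and 22.1 FPKM in AngII and 13.5, 6.59, 9.72, 13.4 and 9.72 FPKM in AngII plus OA. For both genes the groups overlapped, and for Cebpd 4 of the 5 AngII hearts were above all vehicle hearts but replicate 3. Its log2 difference was 0.72 ± 0.37 in AngII against vehicle (limma adjusted p = 0.345) and -0.59 ± 0.37 in AngII plus OA against AngII (limma adjusted p = 0.757). Maff and Mafk, small MAF proteins without an activation domain, ranged from 6.29 to 30.7 FPKM and from 6.68 to 20.6 FPKM.

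The Krüppel-like factors parted by gene. Klf10, a factor induced early by transforming growth factor beta, stood at 8.85, 7.15, 11.9, 6.58 and 8.54 FPKM in vehicle, 11.9, 11.7, 10.1, 29.7 and 15.0 FPKM in AngII and 10.1, 9.43, 8.56, 11.3 and 10.9 FPKM in AngII plus OA. All AngII hearts were above 4 of the 5 vehicle hearts, and the AngII plus OA hearts lay in a narrow band within the vehicle range. The log2 difference was 0.72 ± 0.22 in AngII against vehicle (limma adjusted p = 0.125; exact permutation p = 0.024) and -0.49 ± 0.22 in AngII plus OA against AngII (limma adjusted p = 0.737; exact permutation p = 0.040). Klf4, which with Klf2 is raised by blood flow in endothelium, stood at 28.1, 23.8, 32.7, 35.4 and 40.6 FPKM in vehicle, 22.9, 40.4, 19.6, 44.9 and 14.01 FPKM in AngII and 23.9, 16.04, 20.1, 34.5 and 22.7 FPKM in AngII plus OA. Both ends of the Klf4 range were AngII hearts, and its log2 difference in AngII against vehicle was -0.28 ± 0.28 (limma adjusted p = 0.661). Klf2 ranged from 35.8 to 105 FPKM and Klf6 from 18.3 to 45.2 FPKM.

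Myc, a driver of ribosome production and growth, stood at 2.30, 0.854, 6.65, 1.20 and 1.92 FPKM in vehicle, 2.87, 7.16, 2.005, 5.93 and 2.22 FPKM in AngII and 2.56, 2.33, 1.57, 3.18 and 7.88 FPKM in AngII plus OA. Each group held 1 or 2 hearts above 5 FPKM and the rest at or below 3.18 FPKM. Its log2 difference was 0.56 ± 0.40 in AngII against vehicle (limma adjusted p = 0.510) and -0.18 ± 0.40 in AngII plus OA against AngII (limma adjusted p = 0.941).

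Of the small nuclear proteins named for their early induction, Ier2 stood at 25.4, 52.4, 23.6, 36.6 and 40.1 FPKM in vehicle, 28.9, 36.5, 12.9, 49.6 and 17.1 FPKM in AngII and 19.1, 32.3, 15.5, 22.7 and 26.99 FPKM in AngII plus OA. The groups overlapped, and the log2 difference was -0.38 ± 0.32 in AngII against vehicle (limma adjusted p = 0.590) and -0.57 ± 0.32 in AngII plus OA against vehicle (limma adjusted p = 1.0). Ier3, which dampens NF-kB signalling, ranged from 14.1 to 34.6 FPKM, Ier5 from 7.76 to 35.9 FPKM and Csrnp1 from 2.40 to 15.3 FPKM. The Ier3 and Ier5 means were higher in both treated groups than in vehicle, with log2 differences from 0.17 to 0.58 and limma adjusted p of at least 0.393.

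Dusp1, a nuclear phosphatase that inactivates p38, JNK and ERK, had the lowest limma p of the members in AngII plus OA against vehicle. It stood at 45.4, 54.8, 43.2, 59.4 and 58.7 FPKM in vehicle, 36.2, 44.1, 22.03, 43.6 and 28.9 FPKM in AngII and 35.1, 45.7, 28.9, 40.3 and 23.1 FPKM in AngII plus OA. Replicates 2 and 4 of AngII and replicate 2 of AngII plus OA exceeded the lowest vehicle heart, and the other treated hearts were below it. The log2 difference from vehicle was -0.60 ± 0.20 in AngII (95% interval -1.03 to -0.17; limma adjusted p = 0.150) and -0.61 ± 0.20 in AngII plus OA (-1.04 to -0.17; limma adjusted p = 1.0). Each of the 2 had an exact permutation p of 0.024. By that test the lowest p of the members in AngII plus OA against vehicle was that of Nr4a2 (exact permutation p = 0.016). Between the 2 treated groups the difference was -0.0078, with a 95% interval from -0.44 to 0.43. Dusp6, the cytoplasmic ERK phosphatase, ranged from 10.0 to 17.7 FPKM and Dusp5, a nuclear ERK phosphatase, from 1.25 to 4.94 FPKM. Dusp2 and Dusp4, which were not tested, ranged from 0.116 to 0.918 FPKM and from 0.0297 to 0.813 FPKM.

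Gadd45b, a stress sensor that regulates growth arrest and MAP kinase signalling, stood at 9.27, 3.63, 7.32, 3.83 and 6.24 FPKM in vehicle, 7.68, 15.8, 9.44, 9.72 and 14.1 FPKM in AngII and 12.7, 6.72, 9.24, 6.93 and 7.77 FPKM in AngII plus OA. Of the AngII hearts, 4 were above every vehicle heart and replicate 1 was not. The log2 difference in AngII against vehicle was 0.83 ± 0.24 (95% interval 0.32 to 1.34), and its limma adjusted p of 0.101 was the smallest of any member in the 3 comparisons (exact permutation p = 0.016). Against vehicle, AngII plus OA gave 0.49 ± 0.24 (limma adjusted p = 1.0). Gadd45g ranged from 7.57 to 57.2 FPKM. Btg2, an antiproliferative gene that p53 induces, ranged from 12.6 to 64.1 FPKM.

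Zfp36 encodes tristetraprolin, which shortens the life of AU-rich messages including many immediate early ones. It stood at 20.8, 14.7, 16.2, 23.8 and 17.4 FPKM in vehicle, 13.8, 26.5, 10.0, 15.9 and 12.7 FPKM in AngII and 15.7, 20.7, 11.8, 11.7 and 10.5 FPKM in AngII plus OA. The groups overlapped, with log2 differences of -0.27 ± 0.23 in AngII against vehicle (limma adjusted p = 0.580) and -0.40 ± 0.23 in AngII plus OA against vehicle (limma adjusted p = 1.0). Of the 2 cytoplasmic effectors, Rhob ranged from 67.0 to 135 FPKM and Arc, better known for its role at synapses, from 0.186 to 6.14 FPKM.

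The members varied more between hearts of the same group than most genes did. The SD of log2(FPKM + 1) within groups, pooled over the 3 groups, had a median of 0.55 over the 36 members and 0.23 over all 13121 genes tested. Of the 36, 6 were among the most variable 1% of genes (Atf3, Nr4a1, Egr1, Fos, Nr4a3 and Gadd45g), 18 were in the top 5% and 23 in the top 10%. Atf3 had an SD of 1.52 and ranked 10 of 13121, Nr4a1 an SD of 1.20 and rank 38, Egr1 an SD of 1.07 and rank 60 and Fos an SD of 0.99 and rank 73. Dusp6, with an SD of 0.22 and rank 6674, and Rhob, with 0.30 and rank 3694, were the least variable members. Among genes with a mean of at least 5 FPKM, the median SD was 0.49 for 27 members and 0.24 for 5833 genes, and 15 of the 27 were in the top 10%. Without AngII replicate 4 the number of the 36 in the top 10% was 18 and the median SD 0.44, without AngII replicate 2 the number was 28, and without AngII replicate 4 and AngII plus OA replicate 5 together it was 19. These are descriptions of the spread, with no test.

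**Figure D3:**
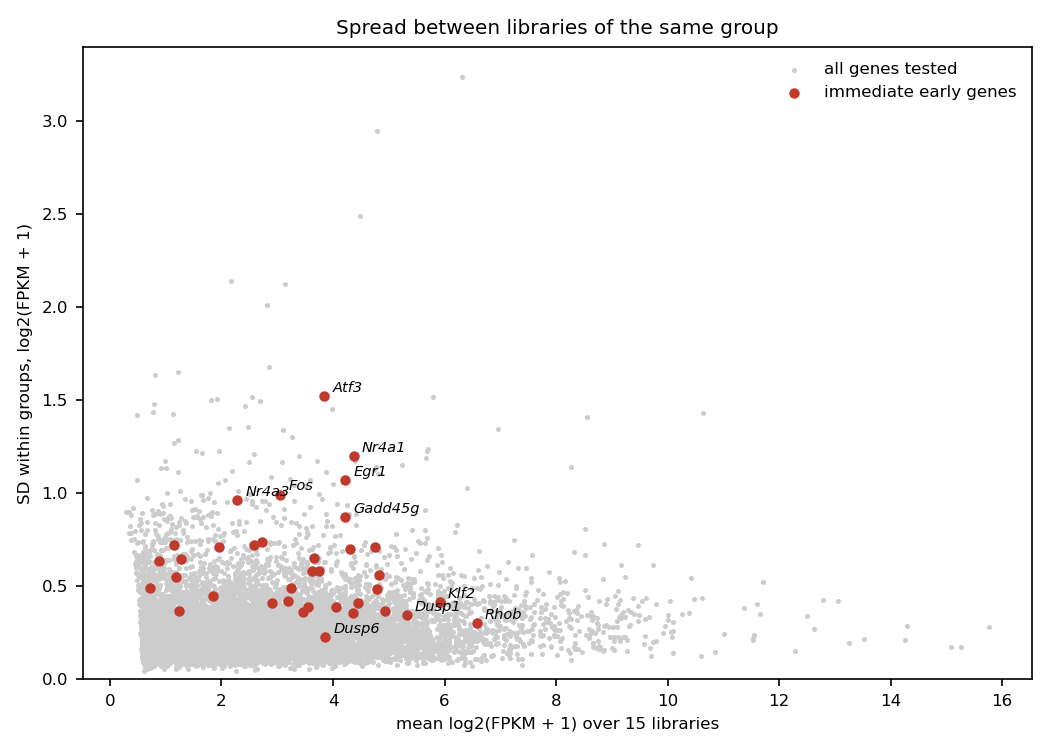
Pooled within-group SD of log2(FPKM + 1) against the mean level over 15 hearts, for all 13121 genes tested (grey) and the 36 members (red). Atf3, Nr4a1, Egr1, Fos, Nr4a3 and Gadd45g lie in the upper edge of the cloud, and Dusp6 and Rhob inside it.

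The vehicle hearts were the most even for some members and not for others. The SD of Atf3 was 0.20 in vehicle, 1.73 in AngII and 1.98 in AngII plus OA. For Nr4a1 it was 0.72, 1.65 and 1.04 in the same order, and for Egr1 it was 0.76, 1.17 and 1.21. Myc and Egr2 had their largest SD in vehicle, at 0.79 and 0.85.

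The members tended to be high or low in the same hearts. In AngII, replicate 4 held the highest value of the group for 23 of 36 members (63.9%), against 22.3% of all genes tested, and replicate 3 the lowest for 21 members (58.3%), against 21.8%. Replicates 3 and 5 were the 2 lowest AngII hearts for 22 members, among them Fos, Egr1, Atf3, Nr4a1 and Dusp1, and for 7.44% of all genes. Replicates 2 and 4 were the 2 highest for 21 members and 13.2% of all genes. Of the AngII plus OA hearts, replicate 5 was highest for 19 members (52.8%, against 13.3% of all genes) and replicate 3 lowest for 18 (against 25.3% of all genes). Replicates 4 and 5 were the 2 highest of that group for 12 members, among them Atf3, Nr4a1 and Myc, and for 15.9% of all genes. Replicates 2 and 5 were the 2 highest for 10 members (Arc, Btg2, Egr1, Egr2, Fos, Ier2, Ier3, Ier5, Jun and Junb) and for 3.29% of all genes. In vehicle, replicates 4 and 5 were the 2 highest for 9 members (Atf3, Dusp1, Dusp5, Egr1, Egr2, Fos, Jun, Klf4 and Nr4a1), against 5.56% of all genes. Replicates 1 and 3 were the 2 highest vehicle hearts for another 10 members, among them Myc, Maff, Klf10, Gadd45b and Cebpd, against 9.52% of all genes.

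**Figure D4:**
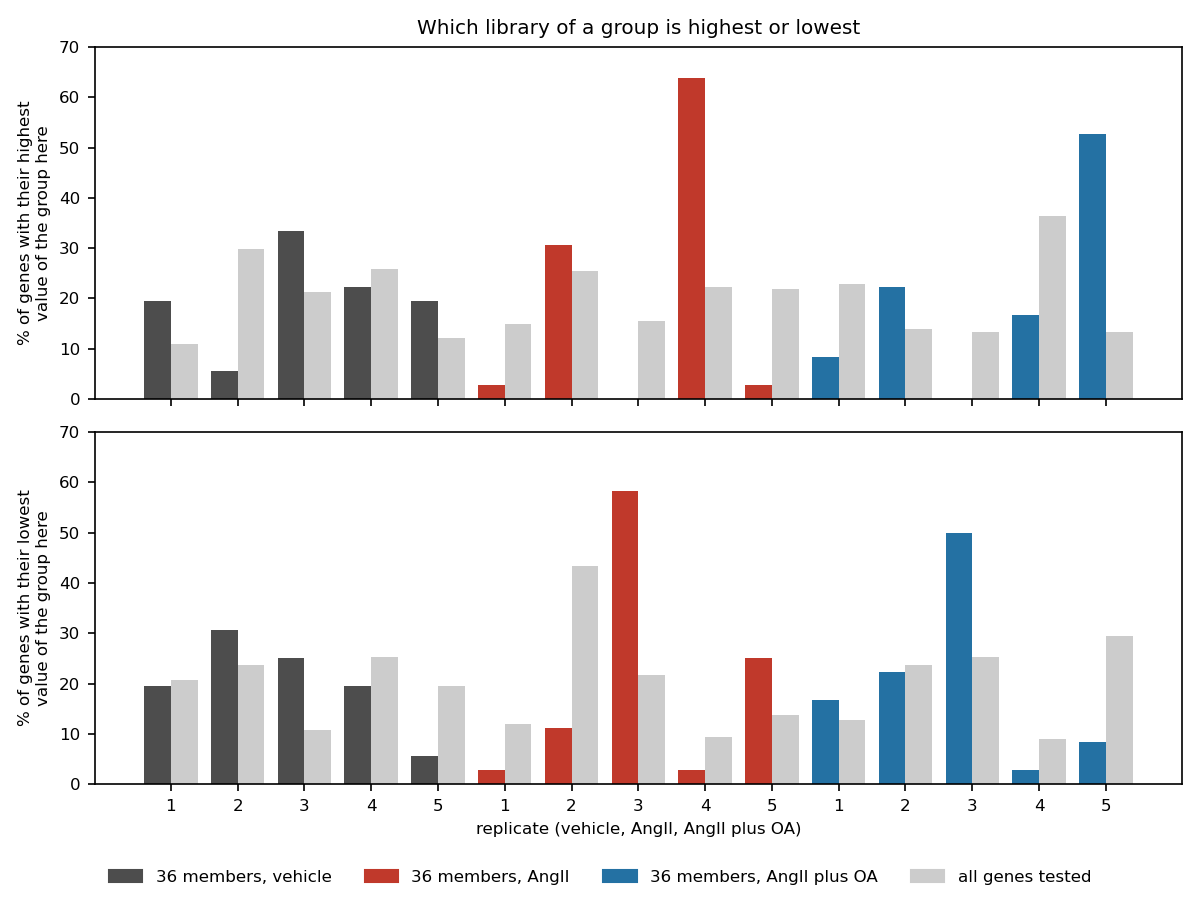
Share of genes whose highest (upper bars) or lowest (lower bars) value within its group fell in each heart, for the 36 members (coloured by group) and all genes tested (grey). AngII replicate 4 and AngII plus OA replicate 5 hold the highest value of 63.9% and 52.8% of members, and AngII replicate 3 the lowest of 58.3%.

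Averaged over the 36 members, log2(FPKM + 1) relative to the vehicle mean was -0.20, 0.18, -0.70, 0.73 and -0.55 in AngII replicates 1 to 5, and -0.37, -0.25, -0.65, -0.22 and 0.30 in AngII plus OA replicates 1 to 5. The vehicle hearts lay between -0.22 and 0.12. In AngII, 1 heart was thus well above and 2 were well below all vehicle hearts. In AngII plus OA, replicate 5 was above all vehicle hearts and replicates 1 to 4 were below them. Replicate 4 was so only just (-0.2173 against -0.2155 in vehicle replicate 2). Relative to each heart's own group mean, the members' average ran from -0.60 in AngII replicate 3 to 0.84 in AngII replicate 4. On that scale the mean of all genes tested stayed within -0.077 and 0.086. Because the members share their 15 hearts, a heart that is high for many of them is 1 observation and not many.

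**Figure D5:**
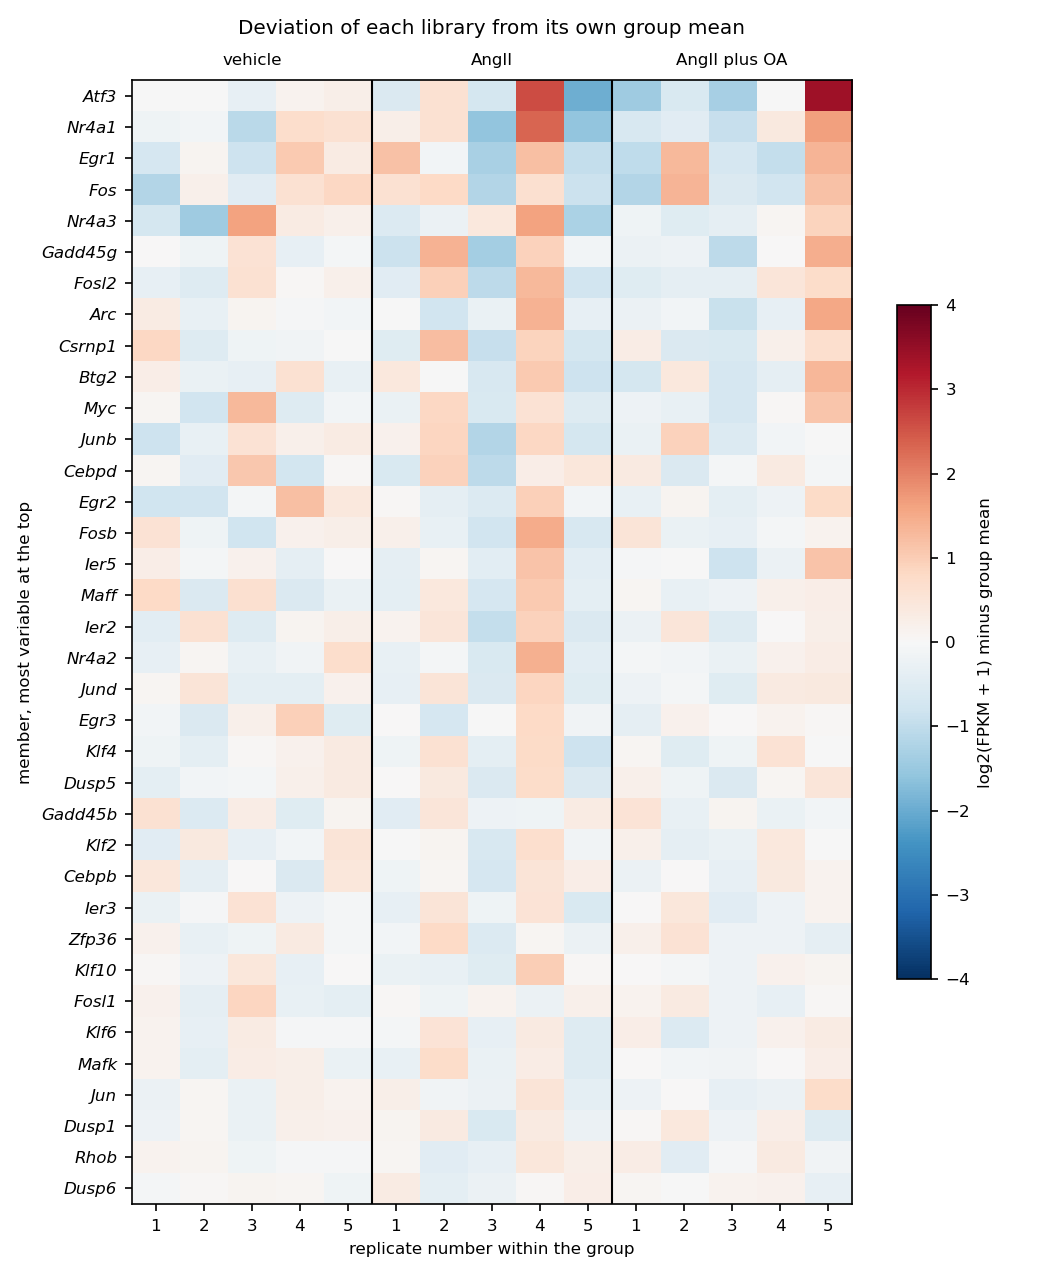
Deviation of log2(FPKM + 1) in each heart from its own group's mean, for 36 members ordered from most to least variable within groups; red is above and blue below the mean. The AngII columns show replicate 4 above and replicates 3 and 5 below the mean for most members, and AngII plus OA replicate 5 stands above its group for the top rows.

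Some hearts stood out for markers of other cells. Summed cardiomyocyte markers (8 genes, among them Myh6 and Myl2) came to 15387 FPKM in AngII replicate 2 and 25141 to 33723 FPKM in the other 14 hearts. In that heart the summed atrial markers (4 genes) reached 2461 FPKM against 1.98 to 692 FPKM elsewhere. Adipocyte markers (3 genes) reached 277 FPKM there against at most 81.4 FPKM, and mesothelial markers (3 genes) 73.5 FPKM against at most 12.5 FPKM. B cell markers (4 genes) came to 52.8 FPKM against at most 11.5 FPKM. Atrial sums also differed within vehicle, from 2.83 FPKM in replicate 1 to 641 and 692 FPKM in replicates 4 and 5. Those 2 hearts also had the highest erythroid sums of the vehicle group (3 genes, 1892 and 2543 FPKM), against 744 to 2543 FPKM over all hearts. AngII replicate 4 had the second highest adipocyte sum, the highest endothelial sum (6 genes, 296 FPKM against 182 to 265 FPKM elsewhere), the highest smooth muscle and pericyte sum (4 genes, 381 FPKM against 197 to 317 FPKM elsewhere), a macrophage sum of 194 FPKM (5 genes, 81.9 to 199 FPKM elsewhere) and the lowest share of mitochondrially encoded reads (18.9%, against up to 31.7%). Neutrophil markers (4 genes) summed to 89.8 FPKM in AngII plus OA replicate 5 and 72.9 FPKM in AngII replicate 2, and to 6.73 to 25.7 FPKM elsewhere, with Ly6g at 0.431 FPKM or less in all hearts. T cell markers summed to 1.69 FPKM or less. AngII replicate 3, the lowest AngII heart for most members, lay inside the range of the other hearts for each marker list. Between groups, fibroblast markers (5 genes) summed to 335 to 649 FPKM in vehicle, 628 to 1087 FPKM in AngII and 466 to 932 FPKM in AngII plus OA. Of the 5, 5 were higher in AngII than in vehicle, as were 8625 of all 13121 genes tested. Of these fibroblast markers 1 passed the limma test, and their median log2 difference was 0.54. The 5 macrophage markers summed to 81.9 to 125 FPKM, 116 to 199 FPKM and 111 to 164 FPKM in the same order, with 5 higher in AngII than in vehicle, 1 past the test and a median log2 difference of 0.31. The part of these cells and of the mitochondrial share in the members' levels was not tested.

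Genes that work with the members were counted from 3 other lists. Of all genes tested, 1.5% were called in AngII against vehicle, 0.0% in AngII plus OA against AngII and 0.0% in AngII plus OA against vehicle. At an unadjusted limma p under 0.05 these shares were 16.6%, 6.6% and 3.36%. Of 31 upstream genes (MAP kinases, their activators and SRF, ETS and CREB factors), 0 were called in each comparison. In the same order of comparisons, 3, 0 and 0 of them had an unadjusted limma p under 0.05 (9.68%, 0.0% and 0.0%). Mapk3, which encodes ERK1, was at 27.6 ± 4.89 FPKM in vehicle, 30.3 ± 4.95 FPKM in AngII and 28.5 ± 3.01 FPKM in AngII plus OA (SD, n = 5), differences within the spread between hearts. Of 25 other primary response genes, 0 were called, and 5, 0 and 4 had an unadjusted p under 0.05. Ccn2, the connective tissue growth factor, was at 44.5 ± 23.8 FPKM in vehicle, 148 ± 132 FPKM in AngII and 83.1 ± 20.9 FPKM in AngII plus OA, with a log2 difference of 1.46 ± 0.45 in AngII against vehicle (limma adjusted p = 0.117). Id1, an inhibitor of differentiation factors, was at 111 ± 24.2, 142 ± 78.2 and 102 ± 18.4 FPKM in the same order. Of 5 other MAP kinase phosphatases 0 were called, and 1, 0 and 0 had an unadjusted p under 0.05. Their log2 differences in AngII against vehicle ran from -0.63 to 0.055, with 3 of 5 lower (34.3% of all genes tested). The 2 most abundant, Dusp3 and Dusp7, had log2 differences between -0.015 and 0.22 over the 3 comparisons.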

How the data were processed

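Poly(A) RNA from 15 mouse ventricles was sequenced, and the labels call the 5 samples of a group biological replicates. Groups came from the sample titles, and each column of the table was matched to 1 title. Per the file headers, the deposited values are FPKM, computed by the authors from reads aligned with HISAT2 2.0.4 to the build named mm8, per the submitters' processing notes. How reads were counted, on which annotation and with which strand setting is not given in the sources used here, so reads of paralogs and of overlapping antisense genes cannot be told apart. Mitochondrially encoded RNA is part of the FPKM denominator, so its share moves every other gene.

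Symbols came from GENCODE M21, which named 36464 of 36653 identifiers. With its exon lengths, whole reads (tolerance 0.02) were recovered in all 15 libraries for 28 of 38 members. The smallest chi-square per degree of freedom between replicates was 27.7, so each library counted once.

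limma 3.58.1 (R 4.3.3) was fitted to log2(FPKM + 1) with an intensity trend, for 13121 genes with a mean of at least 0.5 FPKM, with all libraries in 1 fit and group as the only term. Differences on this scale understate the change of low genes. Tests were 2-sided. The exact permutation test of 5 against 5 libraries cannot give a p below 0.00794. On simulated data, the fit was tested for recovery of known changes. The changed genes were drawn at random from all genes tested, and recovery was not measured for the members, which vary more than most genes. The 38 members and all lists were chosen with earlier results of these data known. Values in every library are given for the 3 members with the smallest limma p in each comparison. They are also given for Fos, Egr1, Jun, Atf3, Nr4a1, Dusp1, Ier2, Zfp36, Myc, Klf4, Cebpb and Cebpd. From the other lists, with none called, the 2 most abundant genes were eligible to be named. Alternatives covered the pseudocount, the filter, the scaling, the libraries in the fit, library weights, the replicate number as a block and leaving out each library. The alternatives for the within-group spread were added after seeing the data. Whether replicate numbers pair the hearts was not settled, and the main fit did not pair them. Correlations of deviations ran from -0.35 to 0.43 over 15 same-numbered pairs, and 6 of the 15 were over 0.1. Differently numbered pairs were not set beside them.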

Additional observations from a re-analysis of the deposited data

Results flagged for a closer look

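In 18 of 114 groups of 5 values, 1 heart stood far from the other 4 (gap over range above Dixon's critical value of 0.71), where chance gives about 1 in 20 for normally distributed, independent groups. The groups share 15 hearts and FPKM values are skewed to the right, so that rate is not one for these data. The count was not made over all genes tested, so whether 18 of 114 is particular to the members is not known. Each of the 18 was the highest of its group, 8 of them in AngII replicate 4 and 6 in AngII plus OA replicate 5.

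In AngII replicate 4, Atf3 was at 67.3 FPKM against 1.85 to 16.1 FPKM in the other AngII hearts, and Nr4a1 at 82.1 FPKM against 4.46 to 23.9 FPKM. Klf10 was at 29.7 FPKM against 10.1 to 15.0 FPKM, and Ier5 at 27.1 FPKM against 8.43 to 12.4 FPKM. Among less abundant members, Arc was at 4.28 FPKM against 0.186 to 1.002 FPKM, Egr2 at 3.20 FPKM against 0.510 to 1.26 FPKM, Fosb at 4.14 FPKM against 0.0907 to 1.10 FPKM, and Nr4a2 at 5.43 FPKM against 0.558 to 1.26 FPKM.

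For AngII plus OA replicate 5, Atf3 was at 201 FPKM against 6.17 to 18.0 FPKM in the rest of its group. Gadd45g was at 51.4 FPKM against 8.41 to 18.7 FPKM, Ier5 at 35.9 FPKM against 8.47 to 15.8 FPKM, and Jun at 32.9 FPKM against 15.1 to 19.4 FPKM. Myc was at 7.88 FPKM against 1.57 to 3.18 FPKM, and Arc at 6.14 FPKM against 0.318 to 1.28 FPKM.

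The other 4 were Junb in AngII plus OA replicate 2 (26.7 FPKM against 9.03 to 13.6 FPKM), Csrnp1 in vehicle replicate 1 (9.92 FPKM against 3.29 to 4.99 FPKM), and Ier3 and Myc in vehicle replicate 3 (25.9 FPKM against 14.1 to 16.5 FPKM, and 6.65 FPKM against 0.854 to 2.30 FPKM). Neutrophil markers were high in AngII plus OA replicate 5 and adipocyte and endothelial markers in AngII replicate 4, and their part in these values was not tested.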

How the results depend on the processing

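No member was called under any of the 10 alternatives per comparison or with any 1 of 10 libraries left out. Among these, the exact permutation test called 0 of all genes in each comparison, so its result for the members is no separate evidence. The number of all genes called in AngII against vehicle ran from 0 (that test) to 425 (without AngII replicate 3). With the replicate block, 0 members were called in each comparison, and 38, 0 and 0 of all genes, against 197, 0 and 0. At an unadjusted p under 0.05, the members numbered 7, 0 and 9 with that block, against 6, 1 and 5 without it. The shares of all genes were 16.1%, 6.34% and 3.34% with the block, against 16.6%, 6.60% and 3.36% without it. Of 954 values of 48 member results, 918 kept their sign and 36 did not, 26 of these with 1 library left out. In AngII plus OA against AngII, Dusp1 was 0.0843 with quantile normalization, 0.0530 with each library shifted to 1 median, 0.0108 with FPKM rescaled without mitochondrially encoded genes and 0.0557 with array weights, and Zfp36 was 0.0652 with array weights. In AngII plus OA against vehicle, Cebpb was -0.0315, -0.0245, -0.0623 and -0.150 under the same 4 settings and Cebpd -0.0137 with array weights. Leaving out 1 library gave, in AngII against vehicle, -0.97 to 0.18 for Atf3 and -0.37 to 0.21 for Fosl2. For AngII plus OA against AngII it gave -0.043 to 1.46 for Atf3, -0.16 to 0.12 for Dusp1, -0.093 to 0.54 for Fos, -0.43 to 0.033 for Ier2, -0.39 to 0.014 for Klf4, -0.46 to 0.024 for Myc, -0.69 to 0.31 for Nr4a1 and -0.26 to 0.072 for Zfp36. For AngII plus OA against vehicle it gave -0.36 to 0.85 for Atf3, -0.14 to 0.12 for Cebpb and -0.060 to 0.39 for Cebpd. The cause was not tested. The number of members in the most variable 10% of genes was 23, and 15 of 27 with a minimum mean of 5 FPKM, where fewer members were tested; it ran from 18 to 28 with 1 library left out, was 17 with a pseudocount of 0.1 and 33 of 38 with no filter.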
